A study of Mus musculus with 34 samples.

Results

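Sites bound by p65 in wild-type Beta-TC6 cells both without and with IL-1β were examined. Beta-TC6 is a mouse insulin-producing β-cell line, and p65 (RELA) is the transactivating subunit of the transcription factor NF-κB. A site was taken as shared when a p65 peak of the IL-1β list overlapped a p65 peak of the control list by at least 1 bp. This gave 1592 of the 31389 IL-1β peaks (5.07%), which overlapped 1592 of the 3157 control peaks (50.4%), each site with a control peak of its own. All 10 peak lists of the study together hold 174035 peaks. The p65 peak calls and tag counts of these wild-type lists chose the sites, so the sites were selected on these values, which are given as a description with no test.

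Binding was mapped by ChIP-seq, in which DNA pulled down with an antibody to a protein is sequenced. For p65 and PDX1, wild-type and Bmal1-/- cells (called the knockout below, which carry a disrupted activator gene of the circadian clock) were left as controls or given IL-1β, an inflammatory cytokine, which makes 8 groups of 3 samples. SIN3A was mapped in wild-type cells given either control siRNA or siRNA against Pdx1, 2 samples each. The labels give a 1 h pulse of 10 µM forskolin, which synchronises the clock, for every sample, controls too. No dose or time of IL-1β was given in the sources used here, nor whether the knockout cells are 1 clone or the samples separate cultures. The labels name 3 immunoprecipitated samples per p65 group, but each group has 1 deposited list, so no difference between conditions could be set against the spread between replicates. Intervals below are 95% Wilson or Newcombe intervals over sites and cover counting error only. The p65 and PDX1 lists rest on 53.5 to 63.9 M tags each and the SIN3A lists on 31.0 and 35.0 M. Peak lists carry no expression, so the cell type and the loss of Bmal1 could not be checked in them. They also cannot tell more cells with p65 at a site from more p65 per cell. For the IL-1β samples of PDX1 the antibody label names p65, whereas PDX1 stands in their titles, which were used.

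In resting cells NF-κB dimers are held in the cytoplasm by IκB proteins, and IL-1β signalling destroys IκB and lets the dimers enter the nucleus. There p65 binds κB sites and switches on inflammatory genes together with its own inhibitors, such as the genes of IκB proteins and of the enzyme A20. PDX1, a homeodomain protein, keeps β cells differentiated and drives insulin gene expression, while SIN3A holds together a corepressor complex with histone deacetylases.

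The very strongest peaks of the IL-1β list were mostly shared sites, and the share fell down the list. Among the 20 IL-1β peaks with the highest tag count 19 were shared sites, as were 69 of the top 100, 229 of the top 500 (45.8%) and 324 of the top 1000 (32.4%), and 9.86% of the highest quartile. Of the top 20 control peaks 19 overlapped an IL-1β peak, of the top 100 it was 84, and of the top 1000 it was 721. The tag count is the authors' number of sequenced tags in a peak per 10 M tags of the library. At the shared sites it ran from 3.35 to 131 in the control list with a median of 8.0, and from 3.18 to 811 with IL-1β with a median of 18.5. The ratio of the IL-1β to the control tag count had a median of 2.10 and reached from 0.324 to 57.4. At 294 sites (18.5%) the IL-1β tag count was the lower one.

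**Figure D1:**
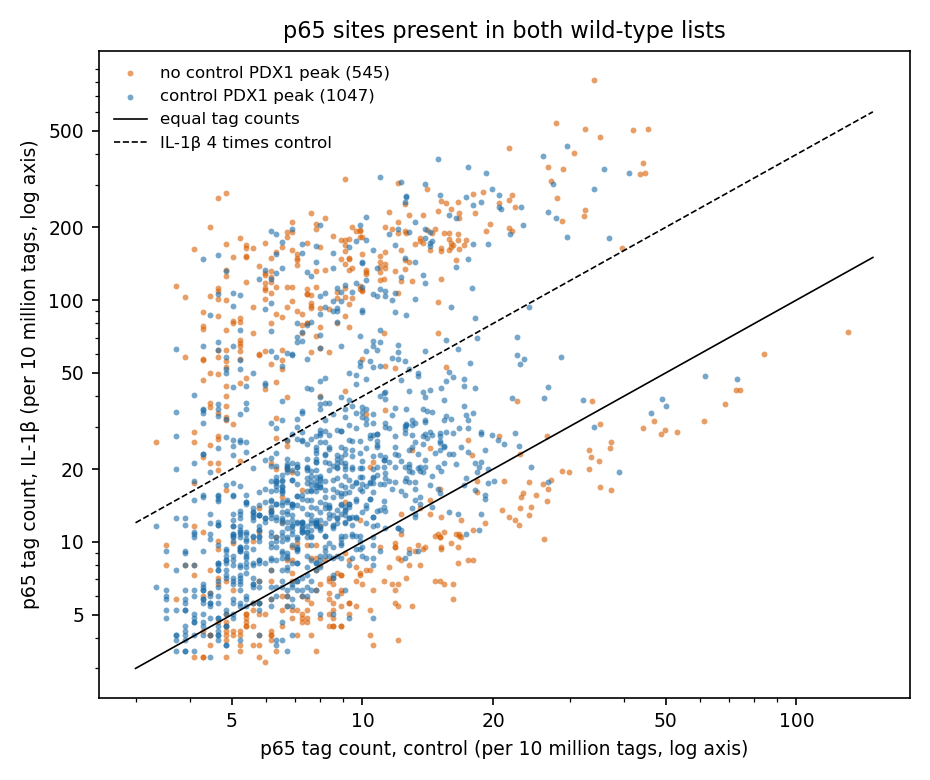
p65 tag count of each of the 1592 shared sites in the control list (x axis) and in the IL-1β list (y axis), both per 10 M tags on log axes, coloured by whether the site overlaps a control PDX1 peak. A solid line marks equal counts and a dashed line 4 times the control count. Sites with a PDX1 peak fill the band between the lines, while sites without one lie mostly above the dashed line or below the solid one.

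The plot of both tag counts shows 3 bands of sites, and they were described by their ratio, with class edges at 1 and 4 that were set after the values had been seen. Below 1 lay 294 sites, with median tag counts of 9.30 in the control list and 6.72 with IL-1β. From 1 to 4 lay 790 sites (49.6%), with medians of 7.62 and 14.4. Above 4 lay 508 sites, with medians of 8.27 and 111. The control medians of the 3 classes lay close together. The classes were cut on the ratio of these same counts, so their IL-1β medians lie apart by construction.

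Genes of the NF-κB feedback loop made up the top of the class above 4. A site was assigned to the protein-coding gene whose body was nearest to its centre within 50 kb. Over all 21887 protein-coding genes 1052 (4.81%) had a shared site, and of the 28 listed NF-κB feedback and subunit genes 14 had one. These 14 genes carried 17 sites, every one with a ratio between 6.90 and 34.8. At Tnfaip3, which encodes A20, the tag count was 34.2 in control and 810.9 with IL-1β, the highest p65 value of that list. Nfkbia, the gene of IκBα, had one site in its body with 45.6 and 509.8 and another at its promoter with 21.8 and 424.2. The κB subunit genes Nfkb2 (32.5 and 509.2), Relb (30.7 and 403.7) and Nfkb1 (6.70 and 190.3) also had sites. So did the IκB family genes Nfkbib (26.8 and 354.3), Nfkbiz (9.11 and 317.4), Nfkbie (28.1 and 263.9), Nfkbid (7.62 and 229.6) and Bcl3 (15.2 and 159.9 at the weaker of its sites). The set was completed by Traf3, Cyld, Tnip1 and N4bp1, which encode negative regulators of the pathway, with IL-1β tag counts from 73.4 at N4bp1 to 274.6 at Tnip1. All 17 sites had a p65 peak in the knockout with IL-1β, as had 96.9% of all shared sites above 4. In the knockout control 6 had one, against 10.0% of that class. Within 1 kb of a gene end lay 11 of the 17, against 18.7% of the class. SIN3A peaks were found at 13 of them in at least 1 siRNA list. With control siRNA it was 9 and with Pdx1 siRNA 8, where the class share was 12.8% in each list. A control PDX1 peak lay at 1 only, a site in Tnip1, against 45.1% of the class.

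Promoter sequence was at hand for a part of these sites, and it is shown here because it holds the κB sites of the feedback genes. RefSeq promoter windows of the build GRCm38.p6, the same assembly as mm10, span 250 bases before to 50 after a gene's start. A window was overlapped by 78 shared sites (4.90%) and by 1637 of the other IL-1β p65 peaks (5.49%), a similar share. Of the 78 sites, 59 were of the class above 4, 11 of the middle class and 8 of the class below 1. The 7 promoters that follow had ratios above 4. Each line gives the part of the p65 peak that lies in the window upstream of the start, on the strand of the gene, and capitals mark matches on either strand to the NF-κB consensus or to GGAATTTCC or GGACTTTCC.
Tnfaip3: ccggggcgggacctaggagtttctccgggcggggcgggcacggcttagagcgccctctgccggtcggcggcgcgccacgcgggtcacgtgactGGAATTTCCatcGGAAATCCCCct
Nfkbia: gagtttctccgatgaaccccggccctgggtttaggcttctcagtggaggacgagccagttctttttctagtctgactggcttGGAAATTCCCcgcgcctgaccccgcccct
Nfkb2: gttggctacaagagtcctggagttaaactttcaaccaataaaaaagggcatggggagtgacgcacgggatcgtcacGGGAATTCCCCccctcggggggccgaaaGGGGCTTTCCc
Nfkbie: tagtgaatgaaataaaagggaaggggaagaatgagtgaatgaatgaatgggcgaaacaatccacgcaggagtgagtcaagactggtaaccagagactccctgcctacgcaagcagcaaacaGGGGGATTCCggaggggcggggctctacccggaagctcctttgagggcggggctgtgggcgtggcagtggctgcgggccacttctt
Traf3: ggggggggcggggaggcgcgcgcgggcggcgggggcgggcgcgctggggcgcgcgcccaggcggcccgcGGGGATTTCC
Irf1: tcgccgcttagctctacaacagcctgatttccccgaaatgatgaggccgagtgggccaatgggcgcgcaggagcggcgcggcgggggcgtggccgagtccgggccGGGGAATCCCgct
B2m: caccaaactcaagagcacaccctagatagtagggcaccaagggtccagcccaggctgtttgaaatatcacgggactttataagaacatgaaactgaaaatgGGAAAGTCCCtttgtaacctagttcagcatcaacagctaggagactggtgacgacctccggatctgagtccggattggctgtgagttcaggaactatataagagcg

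These stretches lie at chr10:19015411-19015527 (minus strand, Tnfaip3), chr12:55492648-55492758 (minus, Nfkbia), chr19:46304622-46304736 (plus, Nfkb2), chr17:45555473-45555679 (plus, Nfkbie), chr12:111166291-111166369 (plus, Traf3), chr11:53769896-53770013 (plus, Irf1) and chr2:122147460-122147666 (plus, B2m). The last base of the Tnfaip3 consensus match lay 3 bases upstream of the start, and a copy of GGAATTTCC lay beside it. Nfkb2 held 3 overlapping or neighbouring matches, and Traf3 a match that ended at the base before its start. Irf1 encodes an interferon-pathway transcription factor, and its site had tag counts of 15.8 and 179.5. B2m encodes the light chain of class I major histocompatibility molecules, and the site at its promoter, which lies in the body of the neighbouring gene Patl2, had 15.2 and 122.2.

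For contrast, 2 promoters whose p65 signal was lower with IL-1β are shown, with no κB match in the stretch printed. Gabrb1, the gene of a GABA receptor subunit, had 26.0 tags in control and 17.4 with IL-1β. Aldh9a1, the gene of an aldehyde dehydrogenase, had 18.2 and 16.4, with a control PDX1 tag count of 9.31. They lie at chr5:71657861-71657920 and chr1:167349918-167349990, both on the plus strand.
Gabrb1: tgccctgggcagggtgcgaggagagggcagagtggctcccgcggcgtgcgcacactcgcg
Aldh9a1: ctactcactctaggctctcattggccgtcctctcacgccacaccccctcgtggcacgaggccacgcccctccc

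Over the whole windows the NF-κB consensus was present at 47 of the 78 promoter sites (60.3%, interval 49.2 to 70.4%). By class it was present at 44 of 59 sites above 4, 1 of 11 in the middle class and 2 of 8 below 1. At promoters of the other IL-1β p65 peaks the share was 26.3% (431 of 1637), and over 1 window of each of 27025 genes 8.18%. Shared sites have higher tag counts than other peaks, so the promoters in the highest quartile of the IL-1β list by tag count were also compared. There the shares were 69.2% of 65 shared sites and 38.6% of 570 other peaks, a difference of 30.6 points (17.9 to 41.3). That quartile runs from 19.6 to 811 tags, and shared sites were 69 of its top 100 peaks. Tag counts were therefore not matched within it, here or in the comparisons by quartile below. The exact forms GGAATTTCC or GGACTTTCC were in 12.8% of windows at shared sites, 4.95% at other p65 peaks and 0.659% of all windows. The homeodomain letters TAATTA or TAATGA were in 7.69%, 8.98% and 14.1%, the E-box CACGTG in 11.5%, 11.3% and 7.24%, and the AP-1 site TGANTCA in 5.13%, 7.82% and 7.93%. A match is a description of the letters and not of binding.

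Among other genes of the class above 4, Junb, an AP-1 subunit gene, had 27.9 tags in control and 538.7 with IL-1β at a site 379 bp from the gene. Of 20 listed immediate early and AP-1 genes it was the 1 with a shared site (5.0%, near the 4.81% of all genes). Of 26 NF-κB effector genes 5 had one, and 25 had an IL-1β peak. They were Ripk2 (17.5 and 354.0), which encodes a kinase of innate immune signalling, Tapbp (9.67 and 192.8), which encodes the antigen-loading protein tapasin, Irf1, Nos2 and Nampt. Of 22 cytokine and chemokine genes 3 had one. Il15 had 5.21 and 180.1, Csf1 had a pair of sites at 6.51 and 135.2 and at 10.2 and 133.2, and Csf2 had 9.86 and 7.28 at a distance of 47693 bp. Other sites with high IL-1β tag counts lay in or near Zzef1 (42.0 and 503.6), Kcnn1 (35.3 and 472.6), Ccdc18 (26.0 and 395.6), Tenm3 (14.9 and 384.0) and Rhbdl2 (36.1 and 348.2). Pecam1 and Myod1, genes known from endothelial and muscle cells, were the 2 of 18 genes of other lineages with a shared site, at 29.6 and 432.8 for Pecam1 and 10.0 and 181.7 for Myod1.

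**Figure D2:**
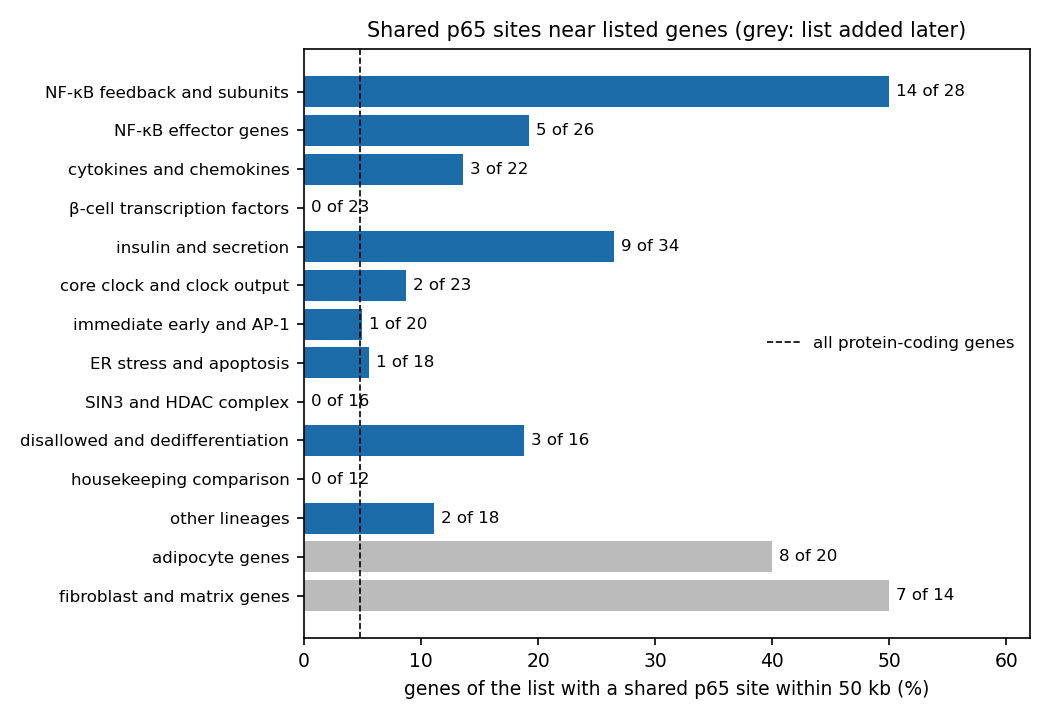
Share of the genes of each list that have a shared p65 site within 50 kb (x axis, %), with the number of genes beside each bar and a dashed line at the share over all protein-coding genes, 4.81%. NF-κB feedback genes and the fibroblast and matrix genes reach 50%, and 3 lists have none. The fibroblast and matrix list and the adipocyte list (grey bars) were added after the values had been seen, so their shares are a description only.

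PDX1 peaks overlapped shared sites far more often than other p65 peaks. A wild-type control PDX1 peak lay at 1047 of the 1592 shared sites (65.8%, 63.4 to 68.1%) and at 22.8% of the 29797 other IL-1β p65 peaks, a difference of 42.9 points (40.5 to 45.3), where all IL-1β p65 peaks together gave 25.0%. For the wild-type IL-1β PDX1 list the shares were 70.2% and 31.9% (all peaks 33.8%), for the knockout control list 46.8% and 9.45% (all 11.3%), and for the knockout IL-1β list 51.7% and 10.6% (all 12.7%). The control PDX1 difference was 30.6, 42.9, 59.5 and 35.3 points in the quartiles of the IL-1β list from the lowest to the highest tag count. PDX1 was in all 4 of its lists at 39.9% of shared sites and 5.73% of the others. Of the control p65 peaks that were absent from the IL-1β list, 44.9% had a control PDX1 peak.

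The PDX1 peaks at shared sites were also strong ones. Their control PDX1 tag count had a median of 32.9, compared with 15.3 at other IL-1β p65 peaks and 8.14 over the whole list of 40028 PDX1 peaks. Of the 100 strongest control PDX1 peaks 66 carried a shared site, of the top 1000 it was 318, and of all it was 1047 (2.62%).

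By ratio class the PDX1 share was highest in the middle. A control PDX1 peak lay at 717 of the 790 sites with a ratio from 1 to 4 (90.8%, 88.5 to 92.6%), at 45.1% of the 508 above 4 and at 34.4% of the 294 below 1. In finer bands it was 10.0% below 0.5, 36.1% from 0.5 to 1, 89.0% from 1 to 2, 93.3% from 2 to 4, 67.2% from 4 to 8, 41.4% from 8 to 16 and 32.1% from 16 upward. In the middle class the control p65 tag count followed the control PDX1 tag count from site to site (Spearman's rho 0.80 over 717 sites), while rho was 0.40 over 229 sites above 4 and 0.33 over 101 below 1. These are descriptions across sites, and the p65 and PDX1 control lists share the same input library.

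**Figure D3:**
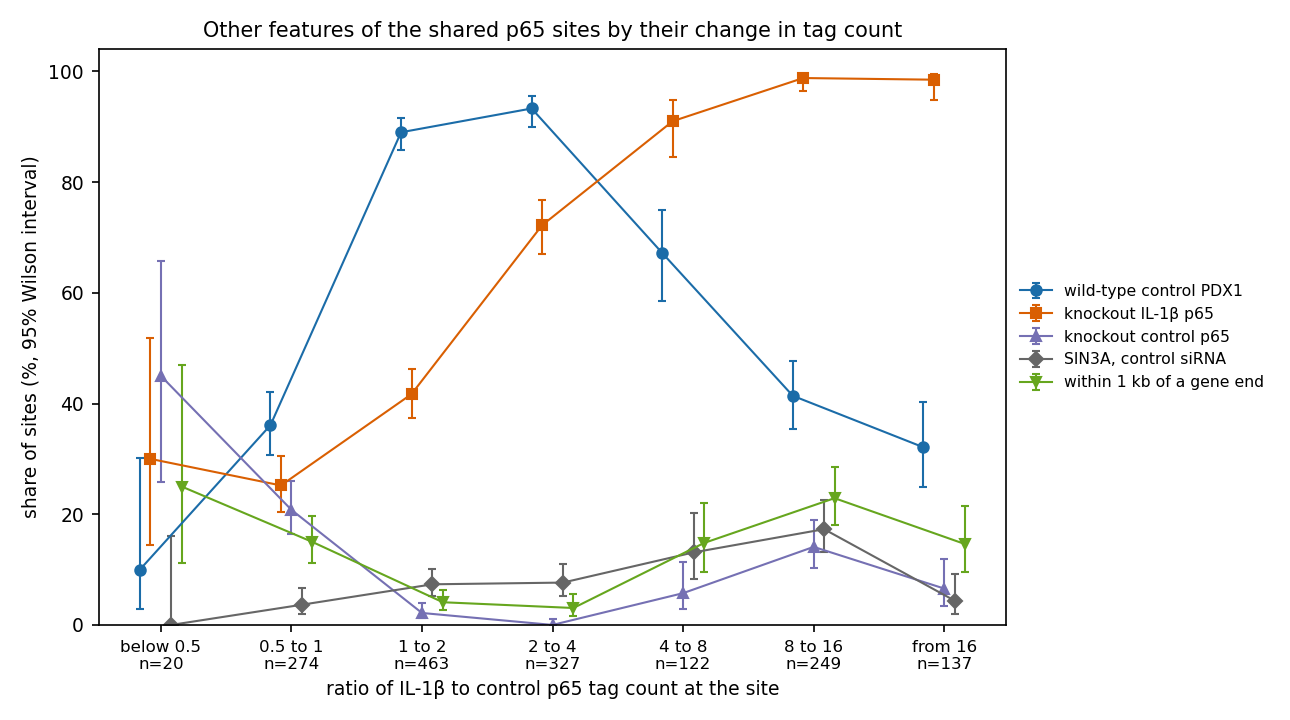
Share of shared p65 sites (y axis, %, with 95% Wilson intervals) that overlap a peak of 4 other lists or lie within 1 kb of a gene end, in bands of the IL-1β to control p65 ratio (x axis, n sites per band). The PDX1 share peaks at 93.3% in the band from 2 to 4, and the knockout IL-1β p65 share climbs from 25.2% in the band from 0.5 to 1 to 98.8% in the band from 8 to 16.

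Genes of insulin production and secretion were represented in the middle class. Of 34 such genes 9 had a shared site, 7 of them with a middle ratio and 2 above 4, and 8 of the 9 sites had a control PDX1 peak. Slc30a8, the zinc transporter of insulin granules, had p65 tag counts of 19.2 and 23.9 and a control PDX1 tag count of 123.3. Cpe, a prohormone-processing carboxypeptidase, had 14.1 and 34.9 with PDX1 at 114.0. Near Ins1, an insulin gene, a site at 11746 bp had 10.0 and 17.4 with PDX1 at 49.9. Ptprn2, Scg2, Cacna1c and Scg5 made up the rest of the middle group, with control p65 tag counts from 4.84 to 7.62. The 2 sites above 4 were at Abcc8, the sulfonylurea receptor (18.2 and 84.4, PDX1 83.4), and near Ero1b, an oxidase of insulin folding (13.6 and 176.1, no control PDX1 peak).

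Of the 23 listed β-cell transcription factor genes 22 had an IL-1β p65 peak and 0 a shared site, a count too small to set against the 4.81% of all genes. Rfx6, Myt1 and Mnx1 had a control peak that was absent with IL-1β, with tag counts of 13.2, 11.5 and 4.65. Of 23 clock genes Rora and Arntl had shared sites. Rora, a nuclear receptor of the clock loop, had 7.07 and 14.2 at one site and 5.39 and 11.0 at another. Arntl, the gene of BMAL1 itself, had 3.72 and 3.92 at a site with no p65 peak in either knockout list. Both counts lay near the lowest of their lists, 3.16 and 2.80. In the lowest quartile 8.09% of shared sites had a knockout IL-1β p65 peak, and the knockout control list starts at 5.33. Of the genes kept low in mature β cells ("disallowed") or linked to dedifferentiation, 3 of 16 had one. Hk1, a hexokinase, had 22.7 and 59.2 with PDX1 at 111.7 at the stronger of its sites, Ldha 16.6 and 8.22, and Oat 3.72 and 4.11. Of 18 stress and apoptosis genes Bcl2 had one, with an IL-1β tag count of 13.3 (5.56%, near the 4.81% of all genes). None of 16 SIN3 and HDAC complex genes or 12 housekeeping genes had one by this assignment, B2m being counted under Patl2. Of the islet cell markers, a shared site lay near 1 of 7 β-cell genes, Ins1, although 6 of the 7 had an IL-1β p65 peak. One also lay near 1 of 2 δ-cell genes, Hhex (9.30 and 12.5, PDX1 55.8), and near none of 3 α-cell genes. The middle-class sites with the highest control PDX1 tag counts, picked out after the values were seen, lay in Zfp395 (p65 32.2 and 38.5, PDX1 208.0), 141604 bp from the nearest gene Adam7 (28.6 and 58.1, PDX1 165.7) and in Pip5k1b (26.8 and 43.9, PDX1 149.9).

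The ratio of IL-1β to control PDX1 tag count differed between the classes of shared sites, but over all of them it was close to that at other p65 peaks. At the 1008 shared sites with a PDX1 peak in both wild-type lists, it had a median of 1.16, and at 6026 other IL-1β p65 peaks 1.18. Among other peaks of the highest quartile the median was 1.33, with 95.8% above 1. In the class above 4 the median was 1.74 (quartiles 1.40 and 2.42), and 209 of 211 sites had a ratio over 1. In the middle class it was 1.13 over 704 sites and below 1 it was 1.01 over 93 sites. At the site near Tenm3 the PDX1 tag count was 16.5 in control and 88.9 with IL-1β, near Ccdc18 20.6 and 105.6, in Pecam1 30.1 and 76.1, and near Ripk2 8.81 and 45.5. In the knockout the median ratio was 1.03 over 103 sites above 4, 0.772 over 489 middle sites and 0.712 over 60 sites below 1. Over all 652 shared sites with both knockout peaks it was 0.790. At 1933 other IL-1β p65 peaks it was 0.804, and 0.868 in their highest quartile. The PDX1 lists were called with windows of 207 bp (control) and 226 bp (IL-1β) in the wild type, and 472 and 418 bp in the knockout. The counts thus cover unlike lengths of sequence, and the part of that in the ratios was not tested. Across sites the p65 and PDX1 ratios had a Spearman's rho of 0.62 in wild-type cells (1008 sites) and 0.44 with the knockout's PDX1 ratio (652 sites). A PDX1 peak was present in the IL-1β list alone at 110 shared sites, of which 87 were of the class above 4, and in the control list alone at 39. These IL-1β PDX1 samples are the ones whose antibody label names p65, and the part of that in the ratio was not tested.

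**Figure D4:**
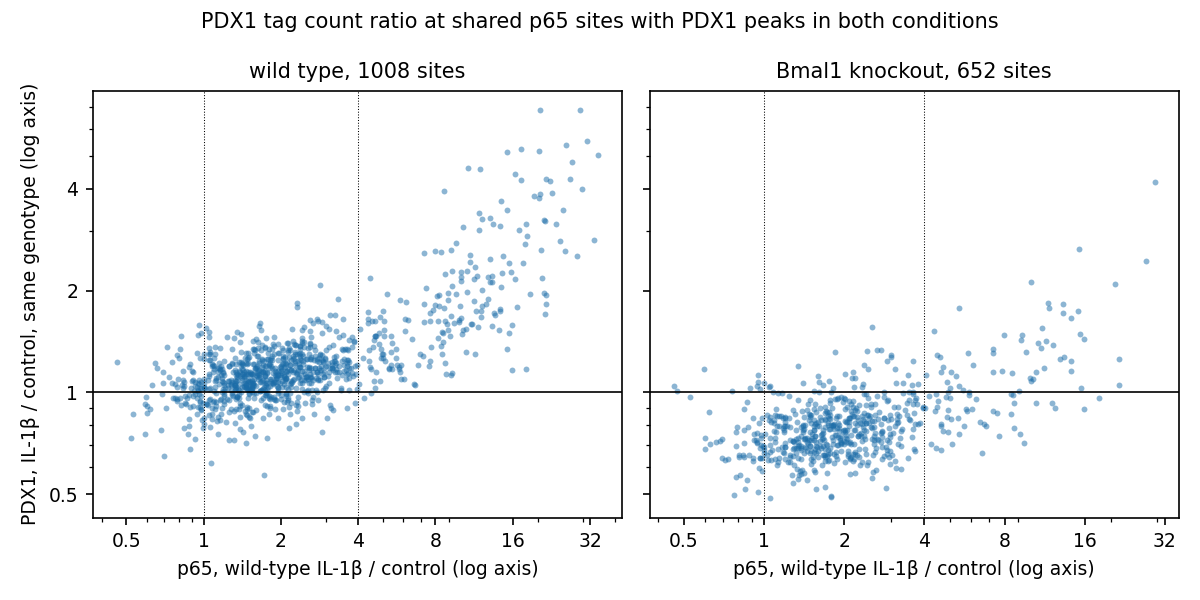
Ratio of IL-1β to control PDX1 tag count (y axis, log) against the wild-type IL-1β to control p65 ratio (x axis, log) at each shared site with PDX1 peaks in both conditions, for PDX1 from wild-type (left, 1008 sites) and knockout cells (right, 652 sites). Dotted lines mark p65 ratios of 1 and 4 and a solid line an unchanged PDX1 count, and points bend upward to the right of 4. The PDX1 lists were called with windows of different width.

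In the Bmal1 knockout with IL-1β a p65 peak was present at 996 shared sites (62.6%, 60.2 to 64.9%) and at 39.6% of the other IL-1β p65 peaks, where all peaks gave 40.7%. Within quartiles of the wild-type IL-1β tag count the shares lay closer together. They were 92.0% against 87.4% in the highest quartile (4.60 points, 2.35 to 6.49), then 50.9% against 47.4%, 27.4% against 20.9%, and 8.09% against 6.27% in the lowest. By ratio class the share was 96.9% above 4, 54.3% in the middle and 25.5% below 1. At sites found in both IL-1β lists the knockout tag count was a median of 0.425 times the wild-type one above 4 and 0.531 times in the middle class, and at other IL-1β p65 peaks of the highest quartile it was 0.454 times. These lists were called separately, with windows of 206 bp in the wild type and 231 bp in the knockout. The 5 strongest shared sites with no knockout IL-1β peak lay in Rerg (5.95 and 112.4), 209638 bp from the nearest gene Bmper (5.02 and 107.0), 184301 bp from Kcnj2 (5.21 and 56.4), in Kcnma1 (17.1 and 44.3) and in Fabp4.

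The knockout control list holds 173 p65 peaks, and 127 of them (73.4%) lay at a shared site. Seen from the shared sites this was 7.98% (6.75 to 9.41%), against 0.0537% of the other IL-1β p65 peaks, where all peaks gave 0.456%. The list was called with windows of 479 bp, so its tag counts cover more sequence than those of the wild-type lists. The share was 22.4% below 1, 1.27% in the middle class and 10.0% above 4. In all 4 p65 lists 99 sites were found, 51 above 4, 41 below 1 and 7 in between. The 51 had a median knockout ratio of IL-1β to control of 5.87, with every one above 1, and the 41 had a median of 0.429, with 2 above 1. Tnfaip3 had 29.4 and 265.0 in the knockout, Nfkbia 39.7 and 197.4, and Zzef1 36.0 and 181.7.

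**Figure D5:**
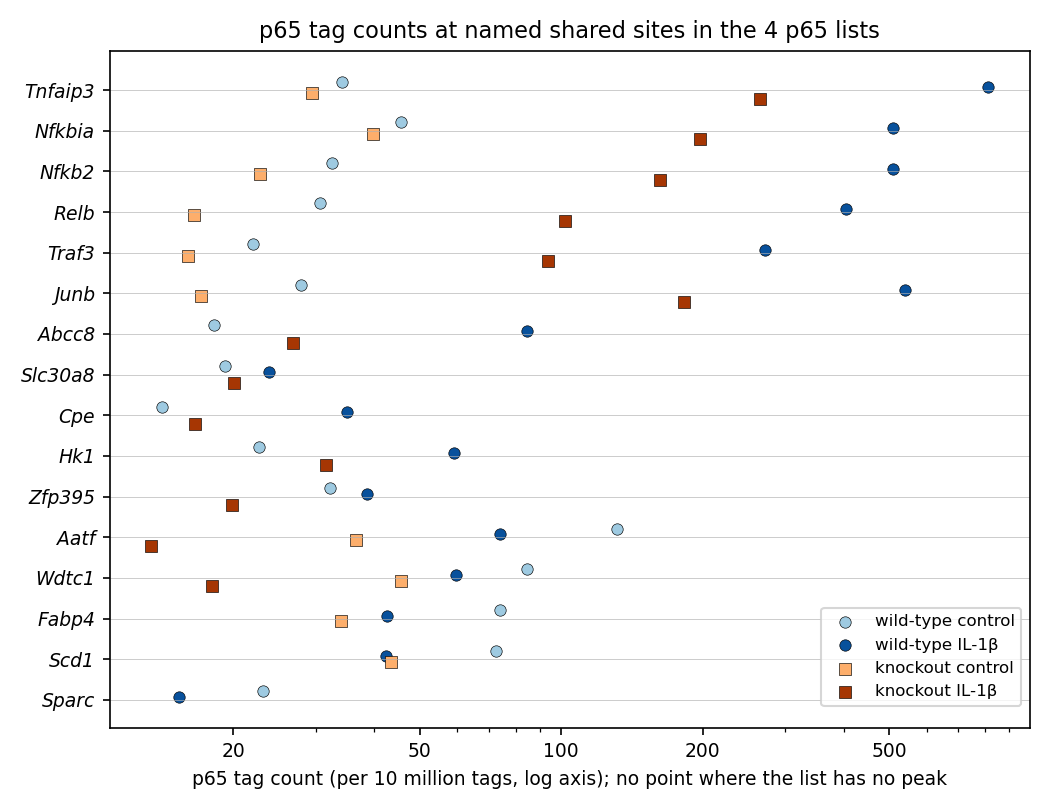
p65 tag count per 10 M tags (x axis, log) at the strongest shared site of 16 named genes in the wild-type control, wild-type IL-1β, knockout control and knockout IL-1β lists, with no point where a list has no peak. For the NF-κB genes and Junb both IL-1β points lie to the right of both control points, and for Aatf and Wdtc1 they lie to the left within each genotype.

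The 294 sites with a lower tag count after IL-1β included the strongest control peaks. The control list's highest value, in Aatf, a gene of a transcriptional and apoptosis regulator, was 131.3, against 74.0 with IL-1β, and the knockout values were 36.5 and 13.4. In Wdtc1, 14252 bp from a gene end, they were 84.4 and 59.8 in the wild type and 45.5 and 18.0 in the knockout. In Otulinl and Cbfa2t3 the knockout control count, from the wider windows, was the highest of the 4, at 71.8 and 63.5, with wild-type values of 61.2 and 31.6 in Otulinl and 48.7 and 28.0 in Cbfa2t3. In Slc3a1, an amino acid transporter gene, the wild-type counts were 72.9 and 47.1. Of the 15 shared sites with the highest control tag counts, 5 had a control PDX1 peak, among them those in Slc3a1 (PDX1 17.4), Npas3 (p65 61.7 and 48.6, PDX1 23.6), Jak1 (PDX1 13.0) and Med13l (p65 46.3 and 34.0, PDX1 199.1). The lowest ratios, from 0.324 to 0.395, were at weak IL-1β peaks in or near Dip2b, Psmg1, E130309D02Rik and Col6a1 and at a site 124433 bp from the nearest gene Prex1.

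Sites in genes known from fat and connective tissue cells were frequent below 1. They drew attention after the values had been seen, and lists of 20 adipocyte and 14 fibroblast and matrix genes were then added, so their counts are a description and no independent evidence. Of the adipocyte genes 8 had shared sites, 15 sites in all, 14 of them with a ratio below 1. Fabp4, a fatty acid binding protein, had 4 sites, the strongest with 74.0 and 42.6 in the wild type, 33.9 in the knockout control and no knockout IL-1β peak. Scd1, a fatty acid desaturase, had 3, the strongest with 72.7 and 42.4 and 43.4 in the knockout control. The others were Lpl, Adipoq, Car3, G0s2, Agpat2 and, with a middle ratio, Pck1. Of the fibroblast and matrix genes 7 had shared sites, 19 in all, 17 with a ratio below 1. Sparc had 4 sites from 11.9 to 23.2 in control, and Col3a1, Vim, Col6a1 and Lgals1 were the other genes below 1. A knockout IL-1β p65 peak was present at 1 of these 15 and none of the 19 sites, and a control PDX1 peak at 1 of each. The Fabp4 and Scd1 maxima were 24.7-fold and 21.6-fold over input in the control list by the authors' value. The source of these signals was not tested.

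SIN3A peaks overlapped a small share of shared sites. In the control siRNA list it was 134 sites (8.42%, 7.15 to 9.88%) against 5.04% of other IL-1β p65 peaks (all 5.22%), and with Pdx1 siRNA 162 sites (10.2%) against 5.80% (all 6.02%). Of the quartiles of tag count, only the highest had an interval of the control siRNA difference that left out 0, at 4.40 points (2.15 to 7.0). By class the control siRNA share was 12.8% above 4, 7.47% in the middle and 3.40% below 1. Near gene ends it was 24.1% of 170 shared sites, compared with 27.4% of other p65 peaks there, and away from them 6.54% against 2.44%. Both siRNA lists had a peak at 74 sites, and there the SIN3A tag count with Pdx1 siRNA was a median of 1.07 times that with control siRNA. At 921 other IL-1β p65 peaks with a peak in both siRNA lists it was 1.13 times. At Nfkb2 the SIN3A counts were 40.6 with control and 42.0 with Pdx1 siRNA, at Nfkbib 43.5 and 49.5, at Relb 31.6 and 38.0, and at Nfkbiz 14.8 and 13.7. Other feedback genes had a SIN3A peak in the control siRNA list only, namely Tnfaip3 (26.4), Nfkbid (23.8), Nfkbie (14.2), Nfkb1 (8.05) and the stronger Bcl3 site (6.76). In the Pdx1 siRNA list only it was both Nfkbia sites (20.9 and 25.7), the stronger Tnip1 site (26.0) and Traf3 (21.2). The SIN3A lists were called separately, with windows of 225 bp for control siRNA and 208 bp for Pdx1 siRNA. Whether a peak in 1 list alone marks a gain or loss of SIN3A was not tested. A SIN3A and a control PDX1 peak occurred together at 67 shared sites.

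The share near gene ends differed by less than counting error between all shared sites and other p65 peaks, but differed in both directions within quartiles of tag count. Closer than 1 kb to either end of some protein-coding gene lay 170 of them (10.7%, 9.25 to 12.3%) and 10.4% of the other IL-1β p65 peaks, and 10.4% of all. The difference of 0.241 points (-1.23 to 1.89) was within counting error. In the lowest quartile the difference was 6.30 points (2.20 to 12.0) and in the third -6.70 points (-8.71 to -3.90). Inside gene bodies lay 50.8% and 50.7%. The classes differed in this respect, with 18.7% above 4, 3.67% in the middle and 15.6% below 1 near a gene end. The same division ran along PDX1, since 2.10% of the shared sites with a control PDX1 peak and 27.2% of those without lay near a gene end. Other IL-1β p65 peaks had the same direction. Among them a control PDX1 peak lay at 7.27% near a gene end and 24.6% farther away, and among shared sites at 12.9% and 72.1%.

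The rule that chose the sites has an edge in the overlap. The members with the shortest overlaps, of 4, 5 and 7 bp, had as nearest genes Dsc3 (control 7.81, IL-1β 7.66), Tle3 (5.58 and 12.9) and Mrps33 (6.51 and 8.59). The nearest IL-1β peaks left out had gaps to a control peak of 0, 2 and 3 bp and the nearest genes Kcnt2 (3.91 and 7.10), Etnk2 (4.65 and 23.0) and Adra2a (10.8 and 49.3). Within 100 bp of a control peak lay 89 IL-1β peaks that were not counted. The median overlap was 162 bp of a window of 206 bp, and 1205 of the 1592 sites lay within 50 kb of a protein-coding gene.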

How the data were processed

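Each of the 10 groups has 1 peak list, called by the authors with HOMER findPeaks (factor style, false discovery rate 0.001, at least 4-fold over input), per the file headers. Bowtie2, HOMER and mm10 are named in the submitters' processing notes, without versions. No source used here says whether replicates were pooled. Peak signal means the tag count in the deposited lists, which the authors scaled to 10 M tags. The deposited findPeaks score served to rank peaks in 1 alternative, and the authors' ratio of signal over input as a fold threshold and description. Lists of different depth and window are compared on the assumption that normalised counts share a scale.

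Overlap of at least 1 bp, nearest gene bodies within 50 kb (RefSeq GRCm38.p6, no strand) and promoter motifs were computed with Python 3.11.15, numpy 2.4.6 and pandas 2.3.3. The overlap code was tested on simulated intervals. Named are the sites with the highest tag counts overall and in each gene list, in knockout and PDX1 classes, the lowest ratios and the sites at the overlap's edge. Sites and gene lists were chosen with earlier results of these data known. Of the genes listed, 1 had no protein-coding entry. The motif searches cover promoter windows only, since no genome sequence was used. Class edges at 1 and 4, the adipocyte and fibroblast lists and the middle-class sites named by PDX1 were chosen after values were seen. Some sites are not reported here.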

Additional observations from a re-analysis of the deposited data

How the results depend on the processing

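Of 53 alternatives, 23 left their result within its counting interval, or within 1.5 times for counts, and 30 moved it, all without a change of direction against the other IL-1β p65 peaks where that comparison was repeated (centres within 100 bp, and at least 8-fold over input). The number of shared sites, 1592 as reported, was 1295 with a reciprocal overlap of 50%, 1284 with centres within 100 bp, 446 with at least 8-fold over input in both lists and 481 with equally long lists.

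With centres within 100 bp the shares were 51.1% for wild-type control PDX1, 55.8% for wild-type IL-1β PDX1, 34.8% and 38.9% for knockout control and IL-1β PDX1, 4.27% and 6.09% for SIN3A with control and Pdx1 siRNA, and 6.66% and 54.6% for knockout control and IL-1β p65. A reciprocal overlap of 50% gave 52.0% and 57.0% for wild-type PDX1, 4.46% and 6.09% for SIN3A, and 55.5% for knockout IL-1β p65, and could give no value for the knockout control p65 and knockout PDX1 lists. With the second list at 8-fold over input or more the shares, in the first order, were 60.1%, 58.7%, 24.7%, 26.6%, 4.59%, 5.53%, 2.45% and 43.7%. Choosing shared sites by reciprocal overlap moved control PDX1 to 63.0% in the wild type and 44.2% in the knockout. Gene ends within 500 bp and 2 kb gave 8.23% and 13.9%. These settings count fewer or more peaks by construction. Assignment within 10 kb left 3 NF-κB effector genes in place of 5. The exact κB forms were in 12.8% of promoter windows in place of 60.3%. With class edges at 2 and 8, added after seeing the data, the middle PDX1 share was 86.2% in place of 90.8%.

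No paired analysis was possible because each group has 1 list with no value per replicate, and for the same reason no replicate was left out.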
